A study of Mus musculus with 4 samples.

Results

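MicroRNA precursors were examined in GFP-positive male germ cells sorted from testes at postnatal day 18. The rows were chosen by symbol and level, as every row whose gene symbol starts with Mir or Mirlet and a digit and whose mean over the 4 libraries was at least 1 TPM (a measure of abundance that takes the length of the row into account and adds up to an equal sum in every library). This left 62 of 24411 rows, out of 1180 rows with such a symbol, of which 67 were above 0 TPM in any library. Of the 62 rows, 59 are annotated hairpins and 3 (Mir17hg, Mir22hg and Mir155hg) are the long transcripts that carry microRNAs, known as host genes. The mean over both groups made the choice, so a row's level is a description and the contrast between the groups was not used.

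The groups were 2 control libraries from Zfp541+/- testes and 2 libraries labelled Zfp541 KO, both on the Rec8-3FH-GFP KI background, in which GFP is made from the locus of the meiotic cohesin subunit REC8. The strain is given as C57BL/6 and CBA mixed. The knockout allele lacks exon 1 to exon 13 of Zfp541, and the controls keep 1 intact copy. The design text gives 1 control testis as heterozygous and 1 as homozygous for the Rec8-3FH-GFP KI allele and both KO testes as homozygous, and does not tell which control is which. Sorting on GFP enriched for spermatocytes in meiotic prophase. All libraries were made with an mRNA kit and read as single ends of 75 nt. The libraries came from individual testes that are not tied to animals, so p-values measure only the spread between these samples. Fewer cells of a type and less RNA per cell cannot be told apart in such bulk samples.

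The libraries labelled Zfp541 KO, called KO 1 and KO 2 below, held 135.7 and 151 TPM of Zfp541, the targeted gene, against 112 TPM in control 1 and 72.2 TPM in control 2. Its row therefore did not fall with the label, and it does not separate deleted from remaining exons, so the genotype and every direction below rest on the labels alone. Markers of meiotic prophase were high in each library, with 8 leptotene and zygotene genes summing to between 2800 and 5653 TPM. Markers of other testis cells were also present. The 8 Sertoli cell genes summed to between 869 and 1210 TPM. The 6 Leydig cell genes summed to 18.0 TPM in control 2 and to between 331 and 2910 TPM elsewhere, and the 7 macrophage and blood genes to 21.4 TPM against between 409.99 and 552 TPM. Among the 8 pachytene genes the sums were 6299, 3054, 2250 and 3118 TPM in control 1, control 2, KO 1 and KO 2. Control 1 was thus the highest library for that stage. The 8 round spermatid genes summed to 135.9, 50.4, 46.6 and 50.7 TPM, but only 3 of them had a mean of at least 1 TPM. Acr alone held 118, 36.5, 18.0 and 21.9 TPM, and Tnp2 held 7.59 TPM in control 1 and at most 0.75 TPM elsewhere. Spaca1 went the other way, at 7.34, 13.9, 27.0 and 26.6 TPM. The 8 spermatogonial genes summed to 324, 979.7, 674 and 485 TPM. Their part in the results below was not tested.

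A microRNA gene is transcribed as a long primary transcript, from which Drosha and DGCR8 cut a hairpin in the nucleus. Exportin-5 carries the hairpin to the cytoplasm, Dicer trims it to a short duplex, and an Argonaute protein keeps a single strand whose seed, bases 2 to 8, pairs with target mRNAs. In the testis, the miR-34, miR-449 and miR-17-92 families are known for roles in meiosis and germ cell survival. An mRNA library reads long polyadenylated RNA, so a value on a hairpin row counts reads over the precursor or over a transcript that contains it, and not the mature microRNA.

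RefSeq (GRCm38.p6) gave the hairpin for 49 of the 62 rows and at least 1 mature sequence for 53, in all 70 mature sequences with 66 distinct seeds. The mature sequences printed here are written 5′ to 3′ with the seed in capitals. The first set belongs to hairpin rows above 0 TPM in every library, which carry most of the signal.
miR-6236: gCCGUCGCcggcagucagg
miR-703: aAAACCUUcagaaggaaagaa
miR-686: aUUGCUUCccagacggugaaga
miR-2861: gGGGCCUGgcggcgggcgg
miR-719: aUCUCGGCuacagaaaaauguu
miR-8094: aACUGAAGgacaacgagaaga
miR-8112: uCUCCGCCaccuccaccgca
miR-6516-5p: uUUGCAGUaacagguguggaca
The second set belongs to rows at 0 TPM in both controls and above 0 in both libraries labelled Zfp541 KO, together with miR-1892, the single row whose levels were lower in both of the latter.
miR-26b-5p: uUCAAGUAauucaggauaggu
miR-466i-3p: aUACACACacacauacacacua
miR-1291: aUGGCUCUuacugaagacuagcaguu
miR-8102: uCACGCGGgggaacgaggaaga
miR-1906: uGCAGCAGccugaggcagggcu
miR-683: cCUGCUGUaagcuguguccuc
miR-1892: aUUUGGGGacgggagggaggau
The third set belongs to the microRNA families known from germ cells.
let-7d-5p: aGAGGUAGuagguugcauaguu
miR-18a-5p: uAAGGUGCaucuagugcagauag
miR-25-3p: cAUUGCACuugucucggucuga
miR-34b-5p: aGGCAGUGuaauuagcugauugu
Among the 53 member rows with a mature sequence, a seed was shared only by copies of the same microRNA and by miR-8113 and miR-8119, both AGGAGAG. The copies were Mir683-1 with Mir683-2, Mir1906-1 with Mir1906-2 and Mir8099-1 with Mir8099-2. Mir449b had no mature sequence here, so its seed was not compared. Within this RefSeq set of mature sequences, the let-7d-5p seed, GAGGUAG, stands in 11 names. The miR-34b-5p seed, GGCAGUG, stands there in 4, miR-34a-5p, miR-34b-5p, miR-449a-5p and miR-449c-5p. The set lacks some mature sequences, so further microRNAs may carry either seed.

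Whether a row had a value went with the length of the hairpin. None of the 497 hairpin rows annotated at 39 to 77 nt was above 0 TPM in any library. Of the 322 rows of 78 to 90 nt, 20 were listed above 0, and 20 of 246 rows of 91 to 110 nt and 20 of 107 rows of 111 to 139 nt were. As a share, this was 6.21%, 8.13% and 18.7%. A row shorter than the read can hold no whole read of 75 nt, so a value of 0 in the shortest rows says nothing of the precursor.

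**Figure D1:**
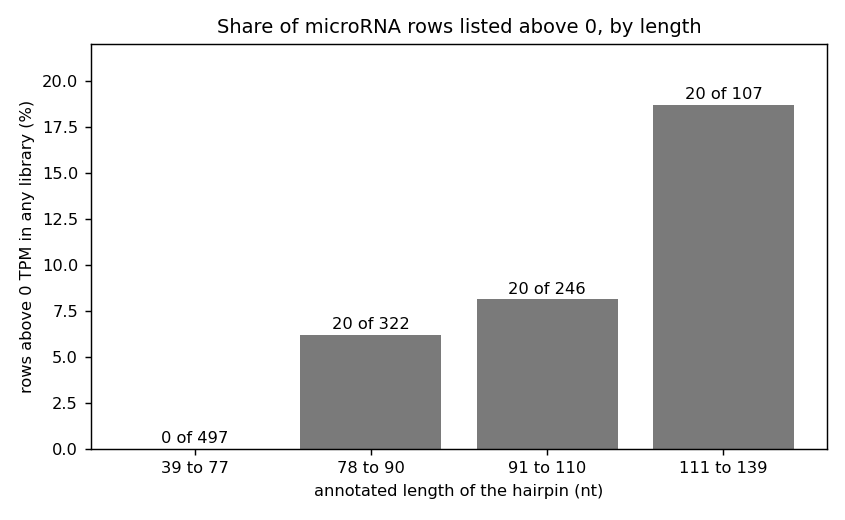
Percentage of microRNA hairpin rows above 0 TPM in any library (vertical axis) by annotated length in nt (horizontal axis), with the number of rows above each bar. Rows of 39 to 77 nt were all at 0, and the share was 6.21% at 78 to 90 nt and 18.7% at 111 to 139 nt.

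The shortest rows with a value also took the largest value from a single read. A hairpin of 85 nt holds 11 positions at which a read of 75 nt can start, and the estimate is divided by about that number. The Mir26b hairpin, chr1:74394310-74394394 on the plus strand, shows the space such a row offers, with the mature sequences in capitals.
Mir26b hairpin: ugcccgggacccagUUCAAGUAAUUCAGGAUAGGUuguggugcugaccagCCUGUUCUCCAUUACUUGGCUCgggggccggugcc
Within each library the short rows' TPM, multiplied by the number of start positions (the length minus 74), fell on repeats of a smallest step. Of the short-row values up to 10 steps, 86.1% in control 1, 78.6% in control 2, 89.4% in KO 1 and 87.2% in KO 2 lay within 0.1 of a whole number of steps. Read as single reads, the steps were worth 60.5, 12.04, 55.1 and 44.9 TPM for a row of 78 nt in controls 1 and 2 and KO 1 and 2, and 6.72, 1.34, 6.13 and 4.99 TPM for a row of 110 nt. On a row of 1000 nt the same read was worth 0.26, 0.05, 0.24 and 0.19 TPM. The step was found in the values after they were seen. The read counts are not stated with the TPM, and the step of control 2 rests on only 2 rows, against 18, 22 and 13 rows in control 1, KO 1 and KO 2.

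Many member values were a few such steps, except in control 2. Of 110 hairpin values above 0 whose length is known, 48 were at or under 1.5 steps, 63 at or under 2.5 and 73 at or under 5.5, which left 37 above. Control 2 held 17 of these 37, out of 21 values, counted in a step that rests on only 2 rows. It also listed the most rows at 0, with 7646 of 24411 against 6563, 6731 and 6518 in control 1, KO 1 and KO 2. Whether its smaller step reflects depth was not tested. A single read was enough to carry a row over the mean of 1 TPM up to a length of 134 nt in control 1, 86.0 nt in control 2, 129 nt in KO 1 and 119 nt in KO 2. The rows just inside the threshold were Mir8119, at 4 TPM in KO 1 only, Mir6403, at 4.40 TPM in control 1 only, and Mir8099-1 and Mir8099-2, at 5.10 TPM in control 2 only. The rows just outside were Mir1893, at 3.66 TPM in KO 1 only, Mir6405, at 3.59 TPM in KO 2 only, and the host row Mir143hg, at 0.94, 0, 0.34 and 1.67 TPM in control 1, control 2, KO 1 and KO 2.

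**Figure D2:**
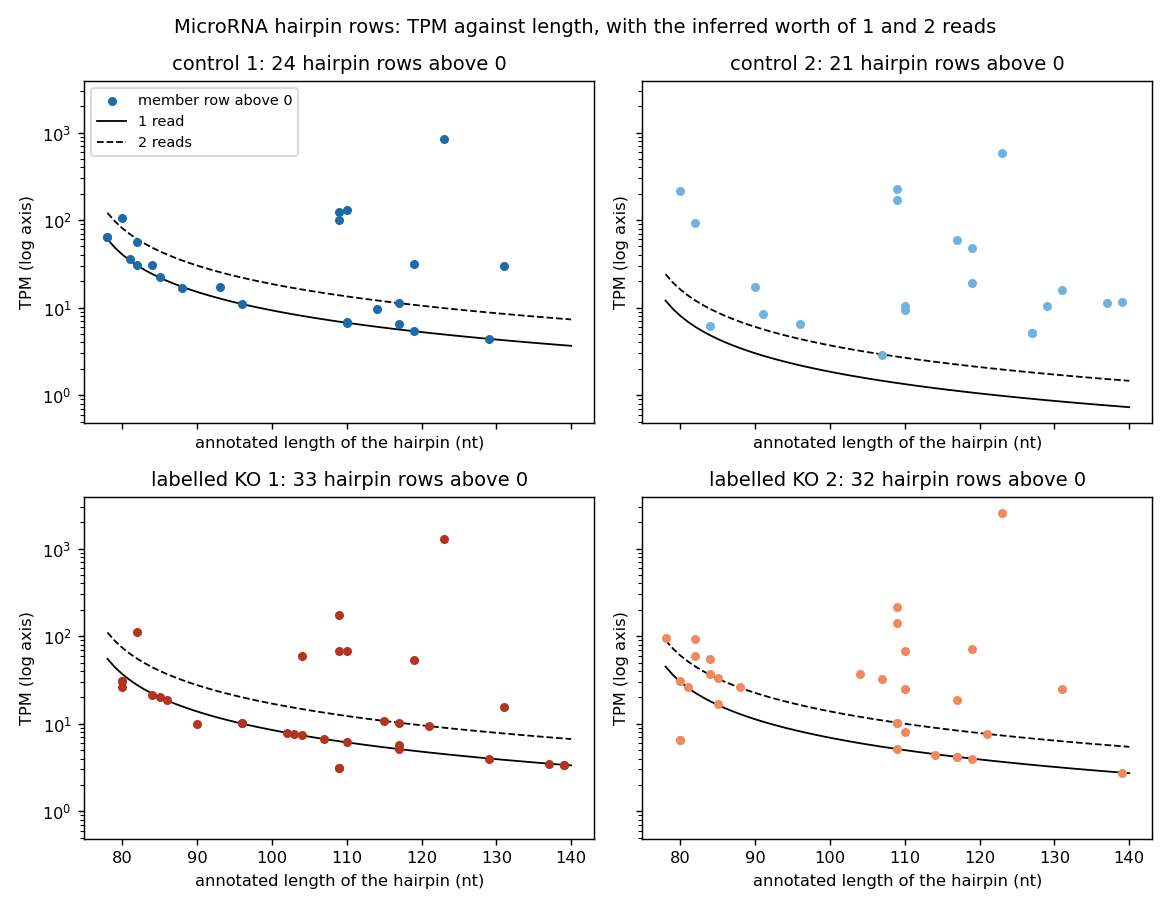
TPM (vertical log axis) of each member hairpin row above 0 against its annotated length in nt (horizontal axis), 1 panel for each library, with lines for the inferred worth of 1 read (solid) and 2 reads (dashed). Many points of control 1, KO 1 and KO 2 lie on or near these lines, and those of control 2 lie above them apart from Mir678 and Mir1668. Mir1957b, at 33.0 TPM in KO 1, has no annotated length and is not drawn.

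Few members were above 0 in every library. Of the 62 member rows, 27 were above 0 TPM in control 1, 24 in control 2, 37 in KO 1 and 35 in KO 2. Of the 62, 12 (19.4%) were above 0 in all 4 libraries, against 96.9% of the 14512 rows with a mean of at least 1 TPM, and 29 (46.8%) were above 0 in 1 library only, against 0.345%. Among rows of 78 nt to under 150 nt, 9 of 58 member hairpins (15.5%) and 3 of 28 other rows with a mean of at least 1 TPM (10.7%) were above 0 in all 4 libraries. The single-library rows were spread over all libraries, with 7 in control 1, 6 in control 2, 9 in KO 1 and 7 in KO 2. Of these single-library rows with a known length, 21 of 28 stood at or under 2.5 steps, among them all 7 of control 1 and none of the 6 of control 2. The 3 with the highest means were Mir468, at 64.2 TPM in control 1, Mir25, at 55.0 TPM in KO 2, and Mir6340, at 48.5 TPM in control 2. The Mir468 value equals 1.06 steps and the Mir25 value 3.06 steps. The Mir6340 value equals 45.4 steps, and all 45 of its possible read starts also lie, on the opposite strand, in the annotated Rab22a transcript, whose gene was at 93.3, 102, 115 and 107 TPM in control 1, control 2, KO 1 and KO 2.

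**Figure D3:**
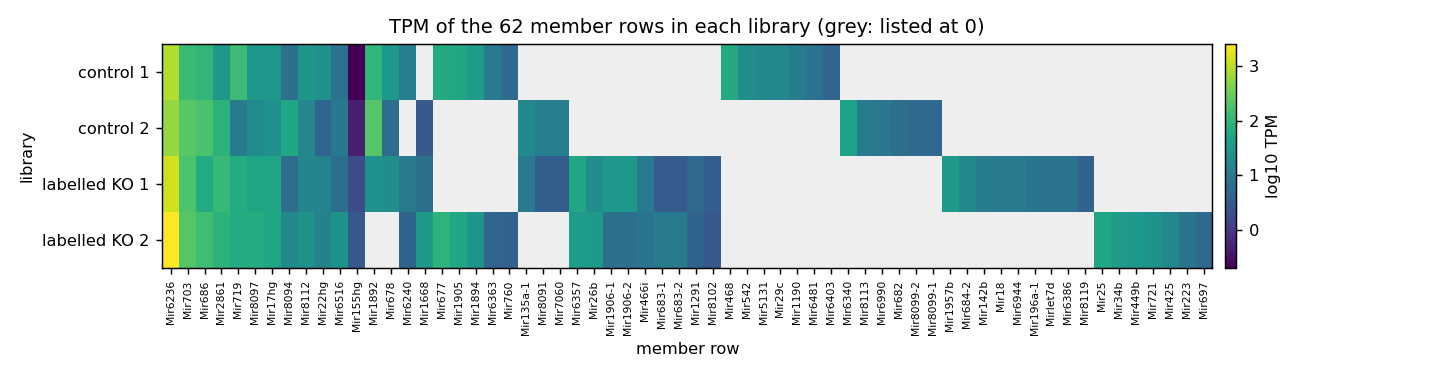
TPM (colour, log10 scale) of the 62 member rows (horizontal axis) in the 4 libraries (vertical axis), ordered by the number of libraries in which a row was above 0. Grey marks values listed at 0, and only the 12 rows at the left are coloured in every library.

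The summed TPM of the members was 1830 in control 1, 1552 in control 2, 2233 in KO 1 and 3823 in KO 2, equal to 0.183%, 0.155%, 0.223% and 0.382% of each library's total. Mir6236 alone made up 46.7%, 37.2%, 58.4% and 67.3% of this sum. Without it the sums were 976, 975, 930 and 1249 TPM, so that KO 1 lay below both controls and KO 2 above them.

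Mir6236, a hairpin annotated between genes at chr9:110281287-110281409 on the plus strand, was the highest member. Its level was 854 and 577 TPM in controls 1 and 2, and 1304 and 2574 TPM in KO 1 and 2. Both KO libraries were thus above both controls, and the difference between the groups was 1.38 on the log2(TPM + 1) scale (SE 0.46, adjusted p = 0.326 from limma). It was 1.66 without control 1, 1.10 without control 2 and 0.89 without KO 2. Rn45s, the ribosomal RNA precursor, was at 483, 941, 612 and 931 TPM in the same order of libraries. Its part in the Mir6236 values was not tested.

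The other hairpin rows found in every library did not separate the groups, apart from Mir8097 and Mir2861. Mir8097, in an exon of Rnf19a, which encodes a RING finger ubiquitin ligase, measured 31.6 and 19.3 TPM in the controls against 52.9 and 70.9 TPM in KO 1 and 2 (difference 1.27 on the log2(TPM + 1) scale, SE 0.34, adjusted p = 0.315 from limma). Mir2861, in an exon of the kinase gene Cdk9, measured 31.1 and 91.8 TPM in the controls against 113 and 92.2 TPM in KO 1 and 2 (difference 0.92, SE 0.56, adjusted p = 0.491 from limma). The KO 2 and control 2 values of Mir2861 were nearly equal, so its groups separated by little. All 8 possible read starts of Mir2861 also lie in an annotated Cdk9 transcript. Cdk9 measured 67.5 and 67.3 TPM in the controls against 91.6 and 92.45 TPM in KO 1 and 2. Rnf19a measured 102 and 42.3 TPM in the controls against 69.7 and 72.9 TPM in KO 1 and 2. The part of these genes in the hairpin values was not tested. The Mir8097 difference was 1.61 without control 1 and 0.93 without control 2. That of Mir2861 was 0.15 and 1.68. Mir703, which lies against an intron of Cfap299 on the opposite strand, measured 125 and 224 TPM in the controls against 177 and 216 TPM in KO 1 and 2. Mir686, in an exon of the proteasome subunit gene Psmb5, measured 100 and 168 TPM in the controls against 67.4 and 140 TPM in KO 1 and 2. Neither row separated the groups. All 35 possible read starts of Mir686 also lie in Psmb5, which measured 212 and 432 TPM in the controls against 233 and 233 TPM in KO 1 and 2.

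Mir719, in an exon of the nucleoporin gene Nupl1, had controls far apart: it was at 130 TPM in control 1, 10.3 TPM in control 2, 67.6 TPM in KO 1 and 68.5 TPM in KO 2. Mir8094, in an exon of the RNA helicase gene Ddx39b, was at 59.1 TPM in control 2 and between 5.78 and 18.9 TPM elsewhere. Mir6516, in an exon of Snhg20, was at 25 TPM in KO 2 and between 6.13 and 9.28 TPM elsewhere. Mir8112, in an exon of Krcc1, was highest in control 1, at 29.7 TPM, and lowest in KO 1, at 15.5 TPM. Without control 1 the Mir719 difference was 2.61, and without control 2 it was -0.92. In these 4 rows the groups overlapped, with the controls of Mir719 on opposite sides of the KO values, and with a single library of Mir8094 and of Mir6516 far from the rest.

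**Figure D4:**
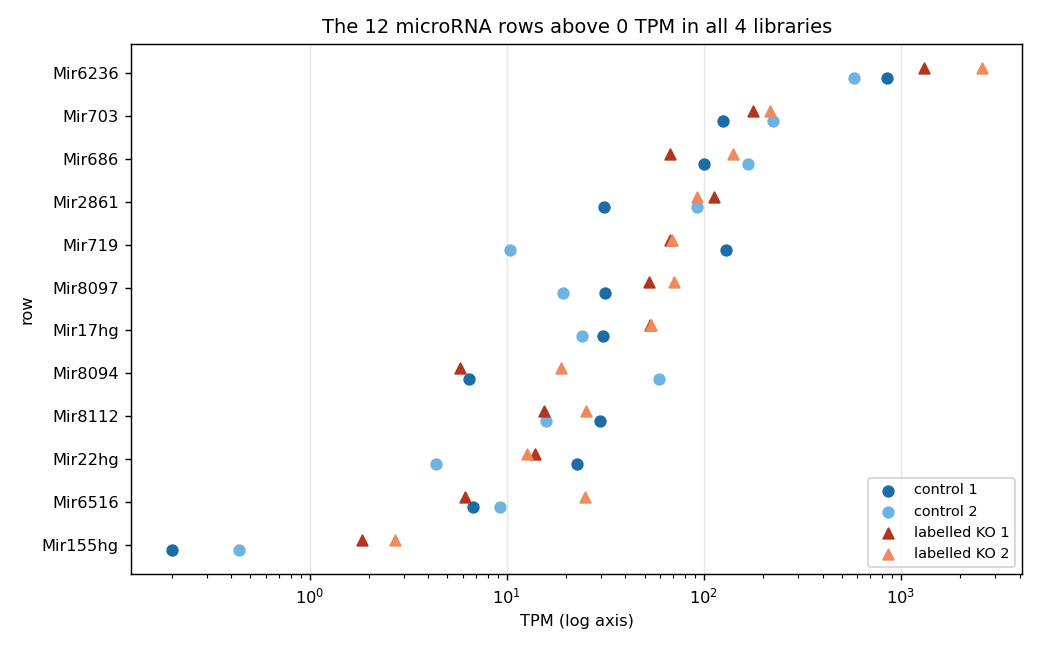
TPM (horizontal log axis) of the 12 microRNA rows above 0 in all 4 libraries, with circles for the controls and triangles for the libraries labelled Zfp541 KO. In Mir6236, Mir2861, Mir8097, Mir17hg and Mir155hg both triangles lie to the right of both circles, and in the other 7 rows the groups overlap.

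The 3 host gene rows are long enough for TPM to rest on many reads at moderate levels. The control values of Mir155hg, 0.20 and 0.44 TPM, are too low for that. Mir17hg, the transcript of the miR-17-92 cluster, which is known as a growth-promoting cluster, measured 30.9 and 24.1 TPM in the controls against 53.3 and 53.7 TPM in KO 1 and 2. The means were 27.5 ± 4.81 TPM (SD, n = 2) and 53.5 ± 0.255 TPM (SD, n = 2), and the difference was 0.94 on the log2(TPM + 1) scale (SE 0.24, adjusted p = 0.310 from limma). The groups did not overlap, and the gap between them exceeded the spread within either. Leaving out control 1 or control 2 gave 1.12 and 0.77.

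Mir155hg, host of miR-155, a microRNA of activated immune cells, measured 0.20 and 0.44 TPM in the controls against 1.84 and 2.71 TPM in KO 1 and 2 (difference 1.304 on the log2(TPM + 1) scale, SE 0.40, adjusted p = 0.320 from limma). The macrophage and blood genes summed to 488 TPM in control 1, 21.4 TPM in control 2, 409.99 TPM in KO 1 and 552 TPM in KO 2, and their part in the Mir155hg values was not tested. Mir22hg measured 22.8 and 4.37 TPM in the controls against 13.9 and 12.7 TPM in KO 1 and 2, with both KO values between the controls. Its difference was 1.41 without control 1 and -0.74 without control 2. That of Mir155hg was 1.17 and 1.44.

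Of the member rows, 9 were listed at 0 in both controls and above 0 in both libraries labelled Zfp541 KO, and 0 showed the reverse. Over all 14512 rows the counts were 14 and 18. The 9 rows are Mir6357, Mir26b, Mir1906-1, Mir1906-2, Mir466i, Mir683-1, Mir683-2, Mir1291 and Mir8102. Mir1906-1 and Mir1906-2 carry identical values, as do Mir683-1 and Mir683-2, so the 9 rows hold 7 separate measurements. Their values in KO 1 and KO 2 ran from 2.76 to 59.0 TPM, and 16 of the 18 were at or under 2.5 steps. A fold against a group listed at 0 was not computed.

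Mir6357, on the opposite strand of an exon of the DNA polymerase gene Poli, stood highest among them, at 59.0 and 37.3 TPM in KO 1 and 2, which equal 8.02 and 6.23 steps. Poli itself measured 45.5 and 42.5 TPM in the controls against 81.8 and 102 TPM in KO 1 and 2. The counting is not stated to use strand, so reads of Poli and of Mir6357 cannot be told apart. Mir26b, in an intron of Ctdsp1, which encodes a phosphatase of RNA polymerase II, was at 20.4 and 33.2 TPM in KO 1 and 2. These equal 1.02 and 2.03 steps. Ctdsp1 measured 45.9 and 16.8 TPM in the controls against 33.3 and 30.2 TPM in KO 1 and 2. Both rows passed the mean of 1 TPM through the KO libraries alone, so no p-value is given for them.

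Mir1291 overlaps the small nucleolar RNA Snora34, which was at 0, 1.08, 10.02 and 28.6 TPM in control 1, control 2, KO 1 and KO 2, and Mir1291 itself was at 0, 0, 5.13 and 4.18 TPM. Of its 43 possible read starts, 18 lie in Snora34. Mir1906-1 lies in an exon of the imprinted long RNA Meg3, which measured 79.0 and 3.14 TPM in the controls against 18.1 and 23.5 TPM in KO 1 and 2. Meg3 was thus highest in a library where Mir1906-1 was listed at 0. Mir466i was at 9.37 and 7.65 TPM in KO 1 and 2, equal to 2.00 steps in each, and Mir8102 was at 3.38 and 2.76 TPM, equal to 0.996 and 0.998 steps.

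Mir1892, in an exon of Sptssa, a subunit gene of the enzyme that starts sphingolipid synthesis, went the other way. Control 1 held 105 TPM and control 2 held 215 TPM, and the row was at 26.3 TPM in KO 1 and at 0 in KO 2, equal to 2.603, 26.8, 0.715 and 0 steps. Sptssa measured 84.5 and 48.1 TPM in the controls against 57.4 and 62.3 TPM in KO 1 and 2, with the KO values between the controls. All 6 of the possible read starts in Mir1892 also lie in the annotated Sptssa transcript, so any read over the row also fits the gene. The limma difference of Mir1892 was -4.86 on the log2(TPM + 1) scale (SE 1.68, adjusted p = 0.332). With KO 2 at 0 this size depends on the pseudocount, at -6.53 with 0.1 and -3.64 with 5, and on the library left out, at -7.24 without KO 1 and -2.47 without KO 2.

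Mir677 and Mir1905, the remaining rows among the 10 highest means, were present in control 1 and KO 2 only. Mir677, in an intron of the ATP synthase gene Atp5b, was at 64.2 TPM in control 1 and 95.1 TPM in KO 2, equal to 1.06 and 2.12 steps. Mir1905, on the opposite strand of an exon of the RNA-binding protein gene Mex3a, was at 56.6 TPM in control 1 and 59.2 TPM in KO 2, equal to 1.87 and 2.63 steps. Each was found in both groups, so neither separated them. Further rows were shared by a control and a KO library in this way: Mir1894, Mir6363 and Mir760 by control 1 and KO 2, and Mir135a-1, Mir8091 and Mir7060 by control 2 and KO 1.

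The germ cell families were nearly empty. Of the 12 let-7 rows, only Mirlet7d was a member, at 7.62 TPM in KO 1 only. Of the 15 rows of the miR-17-92 cluster and its paralogues, Mir18, at 10.1 TPM in KO 1 only, and Mir25, at 55.0 TPM in KO 2 only, were members. Of the 6 rows of the miR-34 and miR-449 family, Mir34b, at 36.6 TPM in KO 2 only, and Mir449b, at 31.0 TPM in KO 2 only, were. Mirlet7d, Mir18 and Mir449b equal 1.00, 1.00 and 1.036 steps. Mir34b equals 2.04 steps. No other row of these 3 families was above 0 TPM in any library. The 3 rows of the miR-183 cluster, the 13 rows of the miR-290 and miR-302 clusters and the 22 rows of the X-linked testis clusters were at 0 throughout, and 2, 7 and 13 of them are under 78 nt. Mir18 lies in Mir17hg in the GENCODE annotation, but it ends at 115043946 on chromosome 14, where the RefSeq span of Mir17hg starts at 115044390. Mir17hg was at 24.1 TPM or more in every library, a level that need not cover Mir18, which was listed at 0 in 3. Mir18 carried the same values as Mir6944, from another locus. Both rows are 96 nt long, and each equals 1.00 steps in KO 1. Mir449b lies in an intron of Cdc20b, which was at 5.67, 1.75, 6.20 and 9.99 TPM in control 1, control 2, KO 1 and KO 2.

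Further members are known from blood and immune cells. Mir223, a microRNA of myeloid cells, was at 8.05 TPM in KO 2 only, and Mir142b, from the blood cell locus of miR-142, was at 10.8 TPM in KO 1 only. The noncoding RNA F630028O10Rik, in which all 36 read starts of Mir223 also lie, was at 3.56, 0, 9.08 and 6.91 TPM in control 1, control 2, KO 1 and KO 2. It was at 0 in control 2, the library with the fewest macrophage and blood transcripts. Their part in these values was not tested.

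Members lay in exons of other genes more often than microRNA rows in general. Of the 58 member hairpins of 78 nt or more with a position, 26 (44.8%) lay in an exon of another gene on the same strand, 10 in an intron, 11 between genes, and 5 and 6 on the opposite strand of an exon or an intron. Over all 675 placed hairpin rows of that length, 148 (21.9%) lay in a same-strand exon and 299 in an intron. By place, 17.6% of the exonic rows were members, against 3.34% of the intronic rows. Of the 49 member hairpins with a sequence, 23 shared every stretch of 75 nt with another annotated transcript, 4 shared some and 22 shared none. Counting either, this was 55.1%, against 19.3% of the other 472 hairpins of 78 nt or more. Both strands were compared, so matches on the opposite strand are counted too, among them Mir6340 in Rab22a. A read over a same-strand stretch fits the other transcript as well as the hairpin. Over an opposite-strand stretch it does so only if counting ignored strand. The level of these rows depends on how the estimate split such reads. These positions are GENCODE M21 annotation on GRCm38.

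No microRNA row passed an FDR of 0.05 between the groups in limma, and none of the 14512 rows tested did, a share of 0% in each direction. At an unadjusted p under 0.05, 10.7% of all rows tested were higher and 3.73% lower in KO 1 and 2. The count of the members, 14 higher and 1 lower, cannot be read beside these shares. Of the 14, 9 are listed at 0 in both controls and passed the mean of 1 TPM through the KO libraries alone. Among the 12 rows above 0 in every library, 4 were higher at an unadjusted p under 0.05 and 0 were lower. Adjusted p over the members ran from 0.310 to 0.997 in limma. Calls appeared for members and for other rows when a control was left out, which sets 1 control against 2 KO libraries. The spread then comes from the KO libraries alone, and members listed at 0 in both of them have none. No result about the members is drawn from such calls.

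The groups did not overlap in 16 of the 62 rows, 15 with both KO values above both controls and 1 (Mir1892) with both below. Of the 15, 9 are the rows listed at 0 in both controls. Over all rows tested, the share with both KO values above was 38.6% and the share with both below was 12.1%, against 24.2% and 1.61% of the members. Among rows above 0 in all 4 libraries, 5 of the 12 members (41.7%) and 39.4% of all rows lay above without overlap. No difference between members and other rows was tested, and values at 0 leave ties in which the groups cannot separate. The median difference over the members was 0.93 on the log2(TPM + 1) scale, beside 0.28 over all rows tested and 0.73 over the 12 members above 0 in every library. A row listed at 0 in a library takes its difference from the pseudocount. Under median-ratio scaling the all-row median went from 0.28 to -0.01. The balance of all rows without overlap turned from 5599 above and 1757 below to 3276 above and 3309 below. The members stood at 14 above and 1 below. Scaling cannot make the 9 rows at 0 in both controls overlap, so this count cannot be set against that of all rows. With 2 libraries a group, an exact permutation test cannot go below p = 0.333.

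Genes that make and use microRNAs were measured on long rows in all 4 libraries. The 28 genes of the pathway list were all tested, and 0 passed an FDR of 0.05 in either direction in limma. At an unadjusted p under 0.05 stood 9 of them, where 10.7% of all rows tested were higher and 3.73% lower. In 20 of the 28 (71.4%) both KO values lay above both controls, and in 0 they lay below, beside 38.6% and 12.1% of all rows tested. The median difference was 0.76 on the log2(TPM + 1) scale. After median-ratio scaling, which sets the median difference of all rows to -0.01, it was 0.43, and 17 genes were above and 4 below without overlap, beside 22.6% of all rows above.

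In the nucleus, Drosha, the nuclease that cuts primary transcripts, measured 72.5 and 94.5 TPM in the controls against 152 and 175 TPM in KO 1 and 2 (difference 0.97, SE 0.22, adjusted p = 0.310 from limma). Its partner Dgcr8 measured 63.4 and 51.8 TPM in the controls against 96.6 and 100 TPM in KO 1 and 2. Both genes separated the groups. The helicases Ddx5 and Ddx17, the cap-binding partner Srrt and the RNA-binding proteins Hnrnpa1 and Srsf3 also did, and the cap-binding gene Ncbp1 did not. For export, Xpo5 measured 48.4 and 42.9 TPM in the controls against 61.9 and 71.9 TPM in KO 1 and 2, whereas its GTPase partner Ran overlapped between the groups.

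For dicing, Dicer1 measured 25.9 and 24.8 TPM in the controls against 64.2 and 64.7 TPM in KO 1 and 2. This was the pathway gene with the smallest unadjusted p, with a difference of 1.31 on the log2(TPM + 1) scale (SE 0.20, adjusted p = 0.310 from limma). The gap between the groups far exceeded the spread within either, and the difference was 1.34 without control 1 and 1.28 without control 2. The Dicer partners Tarbp2 and Prkra overlapped between the groups, and the editing enzyme Adar did not.

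Among the Argonaute proteins and their partners, Ago1, Ago2 and Ago3 separated the groups and Ago4 did not. Ago2, the slicing member, measured 14.9 and 7.29 TPM in the controls against 26.3 and 26.2 TPM in KO 1 and 2. The scaffold gene Tnrc6a measured 30.7 and 14.4 TPM in the controls against 53.5 and 56.5 TPM in KO 1 and 2, and Tnrc6b and Tnrc6c separated in the same direction. The helicase Mov10 overlapped.

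Among genes of microRNA turnover, Lin28b, which blocks let-7 processing, measured 21.99 and 10.2 TPM in the controls against 38.9 and 44.5 TPM in KO 1 and 2. Its paralogue Lin28a overlapped. The uridylating enzyme genes Zcchc11 and Zcchc6 separated the groups, the exonuclease Dis3l2 did not, and Zswim8, which directs the decay of Argonaute on target RNA, measured 114 and 84.8 TPM in the controls against 189 and 192 TPM in KO 1 and 2. The median difference of the pathway genes was 1.03 without control 1 and 0.45 without control 2. Stage markers differed alongside in both directions. The 8 leptotene and zygotene markers summed to 2800 and 3305 TPM in the controls against 5297 and 5653 TPM in KO 1 and 2, with 7 of 8 above both controls. Of the 8 pachytene markers, 1 lay above and 3 below both controls, and their median difference was -0.51. Pgk2, a germ cell glycolysis enzyme, measured 79.0 and 18.4 TPM in the controls against 1.59 and 2.71 TPM in KO 1 and 2. Ldhc, the germ cell lactate dehydrogenase, measured 3659 and 1819 TPM in the controls against 768 and 1230 TPM in KO 1 and 2. None of these markers passed an FDR of 0.05 in limma. Their part in the pathway differences was not tested.

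**Figure D5:**
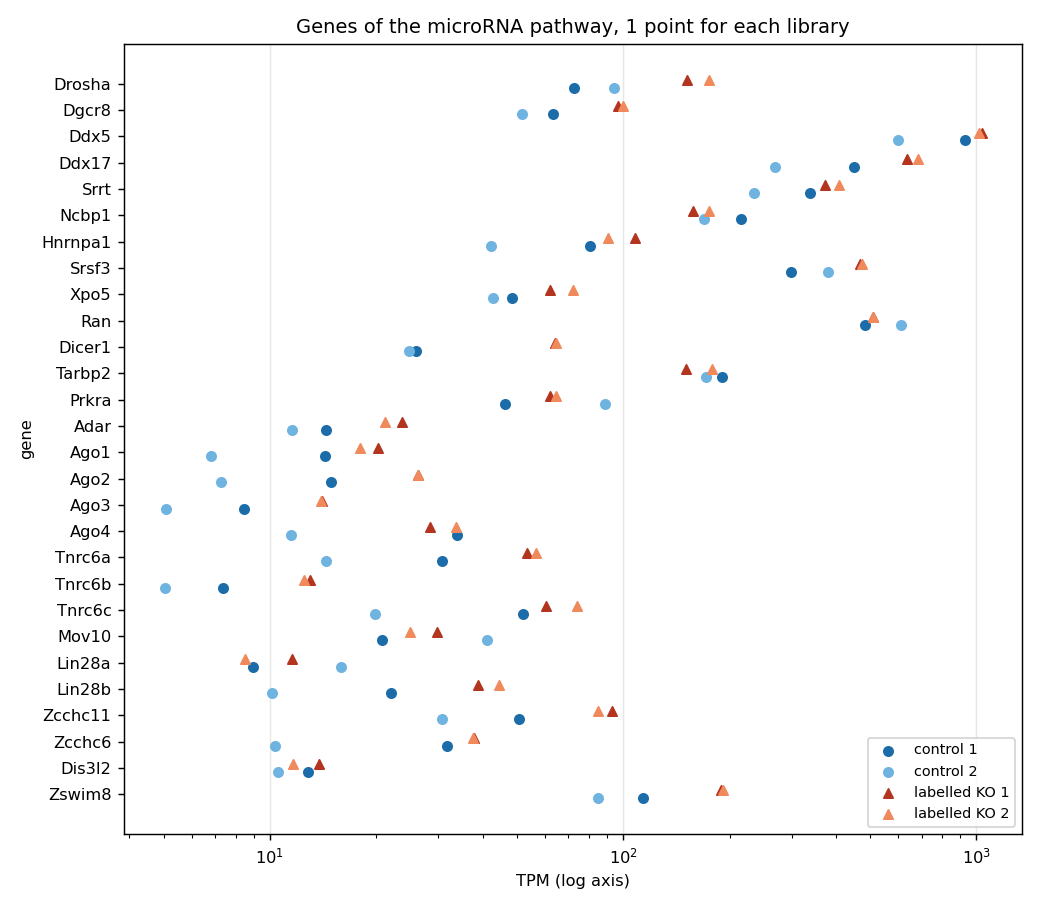
TPM (horizontal log axis) of the 28 microRNA pathway genes, with circles for the controls and triangles for the libraries labelled Zfp541 KO. In 20 genes both triangles lie to the right of both circles, and in no gene do both lie to the left.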

How the data were processed

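Sorted cells of 2 control and 2 libraries labelled Zfp541 KO were grouped by their labels. The authors trimmed reads with Trim Galore 0.5.0 (cutadapt 1.16), aligned them to UCSC mm10 with STAR 2.6.0a, estimated expression with RSEM 1.3.1 and deposited TPM for each gene, per the labels and methods. TPM keeps no library total, so depth is unknown and no counting interval was given. The strand setting is not given in the sources used here. The members and lists were chosen with earlier results of these data known. Rows with a mean of at least 1 TPM (14512) were fitted on log2(TPM + 1) by genotype with limma 3.58.1 in R 4.3.3, two-sided, letting the variance follow the mean level, and p-values were adjusted over all rows by Benjamini-Hochberg. A difference on this scale understates the change of low rows. The fit was tested on simulated data: among 14512 rows with the spread of these libraries, it recovered 0 of 200 rows given a log2 change of 1 and 151 of 200 given one of 6. Hairpin positions and sequences came from RefSeq and gene positions from GENCODE M21. The step of a library is the lowest value around which at least a pair of rows of 85 to 419 nt agreed within 4%. Rows named were Zfp541, the 10 highest members, host gene rows, members of fixed families, members above 0 throughout that separated the groups, the highest single-library members, rows beside the threshold, pathway genes and the genes around named hairpins. Mir6516, Mir223, Mir142b and the rows at 0 in both controls were chosen after their values were seen. Alternatives covered the pseudocount, filter, scaling, replicate block, trend, FDR, row choice and leaving out each library. The crossed block was added after the data were seen.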

Additional observations from a re-analysis of the deposited data

How the results depend on the processing

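The count of 0 microRNA rows past the FDR held under each other pseudocount, filter and scaling, without the trend, at an FDR of 0.1 and with the replicate block, and ranged from 0 to 16 higher and 0 to 8 lower when a library was left out. It was 16 higher and 6 lower without control 1, 8 and 8 without control 2, and 0 without either KO. There the lone sample is assumed to vary like the other group, whose libraries lay close together. Members listed at 0 in both KO libraries have no spread in the fits without a control. No result about the members is drawn from these counts. The replicate block changed no call and left the median at 0.93. Same-numbered samples correlated at -0.156 in their deviations, so the numbers name samples only. With the crossed pairing, 7 of all 14512 rows passed as higher and 80 as lower (0.0482% and 0.551%). Among them were 2 member rows, Mir6357 and Mir26b, both higher. Both are at 0 in both controls and passed the mean of 1 TPM through the KO libraries alone, so no result is drawn from these calls. Pathway genes past the FDR ranged from 0 to 20 higher (20 without control 1, 10 without control 2) and from 0 to 1 lower (1 without control 1), and their median from 0.45 to 1.03 (0.43 after median-ratio scaling).

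The median of the members was 0.47 with a pseudocount of 5, 0.60 after median-ratio scaling and 0.74 after quantile normalization. It ranged from 0.19 to 1.47 over left-out libraries (1.47 without control 1, 0.32 without KO 1, 0.19 without KO 2). Rows separated upward ranged from 16 to 25 and downward from 2 to 16 over left-out libraries, where a lone library has fewer values to overlap. Without control 1, control 2, KO 1 and KO 2 the downward counts were 13, 16, 2 and 5, and without KO 1 and KO 2 the upward counts were 25 and 24. Among members with a mean of at least 5 TPM, 9 separated upward, and after quantile normalization, which gives rows at 0 a value that differs by library, 8 separated downward.

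Signs turned for Mir703 after median-ratio scaling (-0.11), Mir22hg (-0.00252) and Ran (0.0732) after quantile normalization, and Dis3l2 after both (-0.20 and -0.14). The cause was not tested. Over left-out libraries, values ranged from -0.19 to 0.64 for Mir703, -0.93 to 0.11 for Mir686, -0.92 to 2.61 for Mir719, -2.37 to 0.64 for Mir8094, -0.56 to 0.30 for Mir8112, -0.74 to 1.41 for Mir22hg, -0.32 to 1.54 for Mir6516, -0.26 to 0.0777 for Ran, -0.48 to 0.44 for Prkra, -0.13 to 1.35 for Ago4, -0.58 to 0.37 for Mov10, -0.63 to 0.13 for Lin28a and -0.0160 to 0.24 for Dis3l2. Depth is unknown, and 48 of 110 hairpin values above 0 were at or under 1.5 steps.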
